A study of Mus musculus with 4 samples.

Results

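Open chromatin was described at 10 mouse genes of the myostatin and TGF-beta pathway: the ligand Mstn, the receptors Tgfbr1, Tgfbr2, Acvr2a, Acvr2b and Bmpr1a, and the signal transducers Smad2, Smad3, Smad4 and Smad7. Their peaks were taken from 50 kb upstream of the start to 50 kb past the end of each gene (mm9, GENCODE M1), which gave 43 of the 29611 peaks listed for WT and Tet2 KO myoblasts. Of these, 38 were WT peaks and 5 were Tet2 KO peaks. Accessibility was measured by ATAC-seq, in which a transposase inserts sequencing adapters into DNA that is not wrapped tightly in nucleosomes, so that fragments pile up at open promoters and enhancers. The cells were myoblasts grown from satellite cells, the stem cells of skeletal muscle, sorted from the hindlimbs of C57BL/6 mice by surface markers (CD34+ and Integrin a7+, without CD45, CD11b, CD31 or Sca1) and kept for at least 3 days in proliferation medium, and each library was made from 5000 cells. The WT mice carried intact Tet2, which encodes an enzyme that oxidises methylated cytosine. The Tet2 KO mice carried a germline deletion of exon 3 of Tet2, and the study's methods give young adult males as its default. The labels name 2 samples of each genotype, but 1 peak list per genotype was analysed, and the peaks of a list are all named after the same library, which no label mentions. There was therefore no replicate error, no test between genotypes was possible, and a difference between the lists is a difference between those libraries.

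Both lists were a part of the peaks called, because their peak numbers have gaps: 25775 WT peaks were listed out of 35482 numbers, and 3836 Tet2 KO peaks out of 8239. The numbers rose along each chromosome in both lists, so the numbers skipped between neighbouring listed peaks give the most peaks that could have been called there without being listed. The genome-wide background coverage recovered from the WT list was 0.649 fragments and that from the Tet2 KO list 1.38, which is 2.13 times as high, while the median summit held 16 and 15 fragments, respectively. Marker genes were checked from 10 kb upstream of the start to the gene end. Of 6 genes that mark myoblasts, 5 had a WT peak and 4 a Tet2 KO peak. Myod1, Cdh15, Des and Chrna1 had peaks in both lists and Myf5 in neither. Pax7 had 3 WT peaks and no Tet2 KO peak. Of 5 genes of cells that the sort removes (Pecam1 and Cdh5 of endothelium, Ptprc and Itgam of blood cells, and Ly6a, which encodes Sca1), 4 had WT peaks, 7 in all, and none had a Tet2 KO peak. The part of such cells in the values below was not tested. For neither set of marker genes was the share of all genes with a peak in this span counted. In the same span Tet2 itself had 3 WT peaks and no Tet2 KO peak, which does not measure the deletion of its exon.

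Myostatin, encoded by Mstn, is a secreted protein of the TGF-beta family that limits muscle growth and restrains myoblast proliferation and differentiation. Ligands of the family bind type II receptors on the cell surface (Acvr2b and Acvr2a for myostatin and activins, Tgfbr2 for TGF-beta), which then phosphorylate a type I receptor such as Tgfbr1 or, for bone morphogenetic proteins, Bmpr1a. The type I receptors for TGF-beta and myostatin phosphorylate Smad2 and Smad3, which bind Smad4 and enter the nucleus, where Smad3 and Smad4 bind short motifs beside other transcription factors. Smad7 is induced by the pathway and blocks the receptors, closing a negative feedback loop.

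The sequences that carry the comparison fall in 2 sets, read from mm9 on the strand of the member gene. The first set is Tet2 KO peaks of the member windows that overlap WT peaks, shown because they are among the few regions listed in both genotypes. The Tet2 KO peaks in the Acvr2a window and in the Smad7 intron also overlap WT peaks but are not printed. Capitals mark matches to motifs searched on both strands: CAGAC, the SMAD box, GGAATG of TEAD factors, TGANTCA of AP-1 and CAGCTG, an E box that MyoD binds. GTCTG and CATTCC are the reverse complements of CAGAC and GGAATG. The peak in an intron of Tgfbr2 lay at chr9:116062044-116062258 (minus strand), the one downstream of Acvr2b at chr9:119387525-119387744 (plus strand) and the one upstream of Bmpr1a at chr14:35321464-35321742 (minus strand).
Tgfbr2 intron: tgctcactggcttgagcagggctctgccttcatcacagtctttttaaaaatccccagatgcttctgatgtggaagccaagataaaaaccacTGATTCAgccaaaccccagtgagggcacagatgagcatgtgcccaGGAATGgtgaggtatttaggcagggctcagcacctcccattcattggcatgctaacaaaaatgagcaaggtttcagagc
Acvr2b downstream: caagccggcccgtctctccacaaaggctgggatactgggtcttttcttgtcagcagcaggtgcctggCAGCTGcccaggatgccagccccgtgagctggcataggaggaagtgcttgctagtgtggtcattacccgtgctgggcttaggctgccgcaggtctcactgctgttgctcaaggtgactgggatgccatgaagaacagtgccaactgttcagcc
Bmpr1a upstream: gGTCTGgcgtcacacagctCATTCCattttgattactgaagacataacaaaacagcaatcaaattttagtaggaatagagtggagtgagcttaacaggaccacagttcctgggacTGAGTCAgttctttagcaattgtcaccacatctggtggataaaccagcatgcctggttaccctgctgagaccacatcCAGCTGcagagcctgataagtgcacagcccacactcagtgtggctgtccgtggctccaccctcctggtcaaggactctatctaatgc

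The second set is WT peaks at the members' own promoters, except those of Smad2 and Smad7, which are not printed. They are shown because no own-promoter peak overlapped a Tet2 KO peak. Capitals mark CG dinucleotides, the main sites of DNA methylation in mammals. The Tgfbr1 sequence is chr4:47365853-47366093 (plus strand, the last 25 bases of the peak left out because they are transcribed), Tgfbr2 is chr9:116084384-116084517 (minus strand, 144 transcribed bases left out), Acvr2b is chr9:119310995-119311263 (plus strand, the whole peak) and Smad3 is chr9:63591742-63591956 (minus strand, the whole peak at a start inside the gene).
Tgfbr1 promoter: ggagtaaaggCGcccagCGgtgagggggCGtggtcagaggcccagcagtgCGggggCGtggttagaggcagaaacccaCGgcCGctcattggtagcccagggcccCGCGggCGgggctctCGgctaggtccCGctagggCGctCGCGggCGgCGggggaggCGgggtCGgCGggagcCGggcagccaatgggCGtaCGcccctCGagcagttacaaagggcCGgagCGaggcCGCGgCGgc
Tgfbr2 promoter: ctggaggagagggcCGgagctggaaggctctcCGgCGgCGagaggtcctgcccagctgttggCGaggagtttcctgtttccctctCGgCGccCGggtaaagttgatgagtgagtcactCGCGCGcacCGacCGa
Acvr2b promoter: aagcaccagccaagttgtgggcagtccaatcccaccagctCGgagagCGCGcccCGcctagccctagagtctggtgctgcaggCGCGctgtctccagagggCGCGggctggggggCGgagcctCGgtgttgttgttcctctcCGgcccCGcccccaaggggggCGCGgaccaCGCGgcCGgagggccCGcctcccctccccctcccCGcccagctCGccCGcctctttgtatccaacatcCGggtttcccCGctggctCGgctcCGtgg
Smad3 internal start: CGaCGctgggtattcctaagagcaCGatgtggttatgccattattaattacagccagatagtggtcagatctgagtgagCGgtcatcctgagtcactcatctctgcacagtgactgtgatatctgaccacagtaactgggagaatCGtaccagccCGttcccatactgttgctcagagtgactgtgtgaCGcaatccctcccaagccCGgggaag
The printed stretches held 29 CG dinucleotides in 241 bases at Tgfbr1, 13 in 134 at Tgfbr2, 25 in 269 at Acvr2b and 8 in 215 at the internal Smad3 start. The 3 printed promoters at outermost starts are CG-dense, and the internal Smad3 start is sparser. The whole promoter peaks of Smad2 and Smad7, not printed, held 22 and 20 CG dinucleotides.

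**Figure D1:**
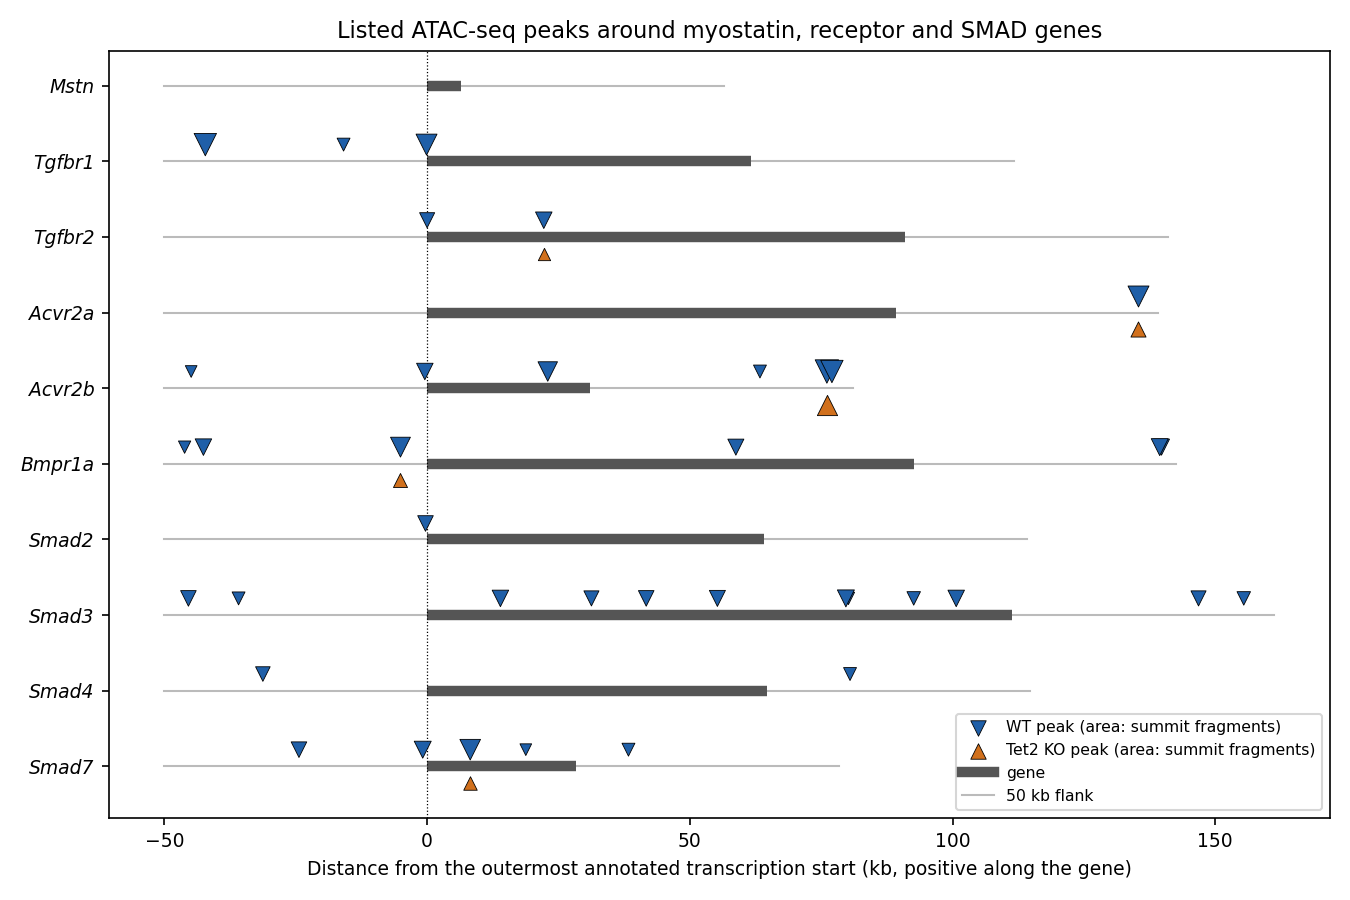
Position of every listed peak of the 10 members, as the distance of its centre from the outermost transcription start in kb along the direction of transcription, with WT peaks drawn above each gene line and Tet2 KO peaks below it. The area of a symbol grows with the fragments at the summit. Smad3 carries 12 WT symbols and no Tet2 KO symbol, Mstn carries none, and the 5 Tet2 KO symbols each lie under a WT symbol.

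The member windows held 7.6 times as many WT as Tet2 KO peaks, beside a ratio of 6.72 over the whole lists. In bulk libraries a lower signal in every cell and fewer cells with the site open cannot be told apart. A WT peak was listed for 9 of the 10 members, and 74.3% of the 22350 protein-coding genes had one in the same kind of window. A Tet2 KO peak was listed for 5 members (Tgfbr2, Acvr2a, Acvr2b, Bmpr1a and Smad7), against 31.4% of all genes. More WT than Tet2 KO peaks were listed for 8 members, against 71.1% of all genes, while Acvr2a had 1 of each and Mstn had none of either. The median member window held 2.5 WT peaks over 164 kb, or 1.53 per 100 kb, and the median gene 2 over 115 kb, or 1.60 per 100 kb. The members' WT peaks were therefore about as dense as those of other genes, and they were spread unevenly, with Smad3 holding 12 of the 38.

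**Figure D2:**
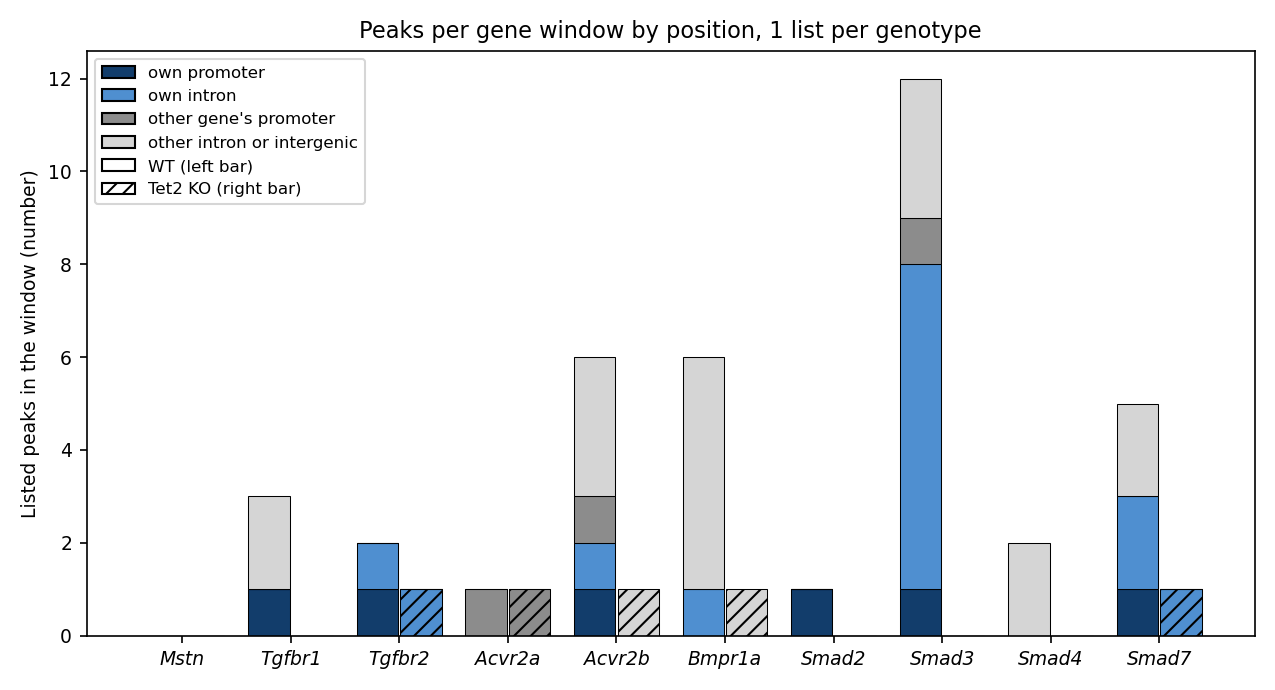
Number of listed peaks (vertical axis) in the window of each member, with WT on the left and Tet2 KO hatched on the right of each pair, split by where the peak centre lies (own promoter, own intron, promoter of another gene, other intron or intergenic). The 6 own-promoter parts are all in WT bars, and no Tet2 KO bar exceeds 1 peak.

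Mstn, the ligand, had no listed peak in its window of 106 kb around chr1:53118507-53124923 (plus strand). It shared this with 25.6% of protein-coding genes, which had none in either list. The nearest WT peaks lay 216561 bp upstream and 235242 bp downstream of its start. Between them the WT list skipped 0 numbers over 451802 bp, so no WT peak was called there at all. The nearest Tet2 KO peaks lay 216574 bp upstream and 1991005 bp downstream of the start, and the Tet2 KO list skipped 4 numbers in the 2207578 bp between them, so a called peak that was not listed is possible in that stretch. 

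Tgfbr1, the type I receptor for TGF-beta and a carrier of the myostatin signal (chr4:47366094-47427803, plus strand), had 3 WT peaks and no Tet2 KO peak. Its promoter peak at chr4:47365853-47366118 held 29 fragments at the summit with a fold enrichment of 14.2 over the local background. That was the highest fold of any member peak and above 97.6% of the WT list. It spanned the annotated start, was 266 bp wide and held 32 CG dinucleotides. A further WT peak 42.2 kb upstream, in an intron of the collagen gene Col15a1, was nearly as enriched, with a fold of 12.5 and 33 fragments, and a weaker one 15.9 kb upstream had a fold of 6.86 and 11 fragments. The 2 strongest of these peaks had folds above the 11.0 that was the median of WT peaks with a Tet2 KO counterpart, yet neither had one. The nearest listed Tet2 KO peaks lay 59037 bp upstream and 250707 bp downstream of the Tgfbr1 start, with 3 skipped numbers between them.

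Tgfbr2, the type II receptor for TGF-beta (chr9:115993415-116084383, minus strand), had 2 WT peaks and 1 Tet2 KO peak. The WT peak at its promoter, chr9:116084240-116084517, had a fold of 8.65 and 15 fragments. The other, in an intron 22.2 kb into the gene (chr9:116062012-116062342), had a fold of 8.96 and 18 fragments and overlapped the Tet2 KO peak printed above, which had a fold of 4.15, 10 fragments and a −log10 q of 2.32. From that intron peak to the next listed Tet2 KO peak, 121165 bp beyond the start, the Tet2 KO list skipped 0 numbers. No Tet2 KO peak was therefore called at the Tgfbr2 promoter, listed or not, although the same gene kept a listed peak in its intron. The promoter and intron peaks of WT differed by less than the counting error of either (15 fragments, exact Poisson 95% interval 8.40 to 24.7, and 18, interval 10.7 to 28.4).

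Acvr2a, a type II receptor for activins and myostatin (chr2:48669629-48758789, plus strand), had 1 peak in each list, and it was not at the gene itself. It lay past the gene end, 135 kb from the Acvr2a start, at the shared promoter of Orc4, a subunit of the origin recognition complex, and Mbd5, at chr2:48804660-48805063 in WT and chr2:48804767-48804992 in Tet2 KO. The WT peak had a fold of 12.9 and 29 fragments, and the Tet2 KO peak a fold of 6.71 and 15 fragments. At the Acvr2a start itself no peak was listed: the nearest WT peaks were 108781 bp upstream and 135031 bp downstream, with 1 skipped number between them, and the Tet2 KO list skipped 5 in a far wider gap of 9758254 bp.

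Acvr2b, the main type II receptor for myostatin (chr9:119311562-119342619, plus strand), had 6 WT peaks and 1 Tet2 KO peak. Its promoter peak, chr9:119310995-119311263, ended 299 bp before the start and had a fold of 9.95 and 18 fragments. The most enriched peak of the window was in an Acvr2b intron at chr9:119334335-119334709, with a fold of 12.04 and 25 fragments. The start nearest to it was that of Exog, a mitochondrial nuclease gene, 19.5 kb away. At the promoter of Xylb, the gene for xylulokinase, a narrow WT peak (chr9:119266590-119266729) had a fold of 6.06 and 9 fragments. Neither the Acvr2b promoter nor its intron peak had a Tet2 KO counterpart. The only overlap was at chr9:119387458-119387835, 76.1 kb downstream of the Acvr2b start and 33.6 kb beyond that of Exog, where WT had 36 fragments and a fold of 6.12 and Tet2 KO had 27 fragments and a fold of 5.60. The local background there was high in both libraries, 5.05 fragments in WT and 3.996 in Tet2 KO. A neighbouring WT peak, chr9:119388401-119388803, with 33 fragments over a background of 5.20, had no Tet2 KO counterpart.

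Bmpr1a, the type I receptor for bone morphogenetic proteins (chr14:35223920-35316527, minus strand), had 6 WT peaks and 1 Tet2 KO peak, and no listed promoter peak. Its most enriched peak, 5.07 kb upstream of the start at chr14:35321425-35321770, had a fold of 12.3 and 26 fragments in WT. It overlapped the Tet2 KO peak printed above, with a fold of 5.87, 13 fragments and a −log10 q of 5.37. The remaining 5 WT peaks, with folds of 4.62 to 9.22, had no counterpart. Of these, 1 lay in a Bmpr1a intron, 2 close together past the gene end and 2 in introns of Ldb3, which encodes a protein of the muscle Z-disc. Across the Bmpr1a start the WT list skipped 1 number in 63546 bp and the Tet2 KO list 1 in 197743 bp.

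Smad2, one of the receptor-activated SMADs (chr18:76401234-76465385, plus strand), had a single WT peak and no Tet2 KO peak. The peak was at its promoter, at chr18:76400765-76401016, with a fold of 8.37, 16 fragments and 22 CG dinucleotides. Over the 380568 bp between this peak and its downstream neighbour the WT list skipped 1 number.

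Smad3, the other receptor-activated SMAD (chr9:63494574-63605801, minus strand), had the most listed peaks of the members, with 12 in WT and none in Tet2 KO. Like 43.0% of protein-coding genes, it had WT peaks but no Tet2 KO peak in its window. That share covers genes with any number of WT peaks, and genes with as many as Smad3 were not counted apart. Fewer WT peaks were listed for 99.3% of protein-coding genes. Its window was also longer than that of 90.8% of genes, and its density of 5.68 WT peaks per 100 kb was above 93.7% of them. Of these, 8 lay inside the gene, 2 upstream and 2 downstream. The folds of all 12 ran from 5.37 to 9.80, so none reached the median of 11.0 of WT peaks with a Tet2 KO counterpart. The most enriched, chr9:63526001-63526200, lay in an intron 79.7 kb from the outermost start with 19 fragments and no CG dinucleotide. A promoter peak was present at an internal transcript start (chr9:63591742-63591956, centre 777 bp upstream of that start and 13952 bp inside the gene), with a fold of 7.22 and 18 fragments. At the outermost start no peak was listed, and the WT list skipped 1 number in the 49660 bp around it. At the shared promoter of Iqch and Aagab, past the gene end, a WT peak at chr9:63450265-63450488 had a fold of 7.10 and 12 fragments and the most CG dinucleotides of any member peak, 33. The nearest listed Tet2 KO peaks were 928956 bp past the Smad3 start on one side and 806380 bp before it on the other, with 4 skipped numbers in the 1735335 bp between.

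Smad4, the partner of all receptor-activated SMADs (chr18:73798663-73863434, minus strand), had 2 WT peaks, both outside the gene, and no Tet2 KO peak. The more enriched, chr18:73894566-73894816, lay 31.3 kb upstream of the outermost start with a fold of 8.20 and 14 fragments, and the other, past the gene end, had a fold of 7.27 and 11 fragments. No promoter peak was listed. The WT list skipped 1 number in the 111567 bp across the Smad4 start, so that a called promoter peak may be missing from the list.

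Smad7, the inhibitory SMAD (chr18:75527183-75555589, plus strand), had 5 WT peaks and 1 Tet2 KO peak. Its promoter peak, chr18:75526225-75526473, was centred 834 bp upstream of the start with a fold of 6.83 and 19 fragments over a local background of 1.93, the highest background of the own-promoter peaks. An intron peak 8.2 kb into the gene, chr18:75535289-75535483, was more enriched, with a fold of 12.6 and 28 fragments. It overlapped the Tet2 KO peak chr18:75535328-75535433, with a fold of 4.39, 12 fragments and a −log10 q of 3.08. The Tet2 KO peak was centred 812 bp downstream of an internal Smad7 start, outside the promoter span used here.

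Own-promoter WT peaks were thus listed for 6 of the 10 members (Tgfbr1, Tgfbr2, Acvr2b, Smad2, Smad3 and Smad7), against 30.4% of protein-coding genes, where a promoter peak has its centre from 1000 bp upstream to 100 bp downstream of any transcript start. No member had a Tet2 KO promoter peak, against 7.94% of genes. The members had 1 to 6 different annotated starts each, and these shares of all genes were not matched for that number. Of the genes with a WT promoter peak, 25.8% also had one in Tet2 KO, and among the members this was 0 of 6 (Wilson 95% interval 0% to 39.0%), which at this number includes the share of all genes. Intervals cover counting error only. For 9 of the 10 members the Tet2 KO list skipped at least 1 number across the start, the exception being Tgfbr2, and 81.2% of all genes without a listed Tet2 KO promoter peak had such a gap. For those 9 an unlisted Tet2 KO peak at the promoter is possible.

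The WT peaks at member genes lacked a Tet2 KO counterpart about as often as WT peaks in general. An overlap of at least 1 bp was absent for 33 of the 38 member peaks (86.8%), beside 85.9% of the whole WT list. In the other direction 5 of 5 member Tet2 KO peaks overlapped a WT peak (Wilson 95% interval 56.6% to 100%), beside 96.8% of the Tet2 KO list. The share of member WT peaks with a counterpart was 13.2% (Wilson 95% interval 5.75% to 27.3%), an interval that includes the 14.1% of the whole list. Of the 9 promoter peaks in the member windows 1 had a counterpart, at Orc4 and Mbd5 (11.1%, Wilson 95% interval 1.99% to 43.5%), beside 22.5% of all WT promoter peaks. Of the 29 distal peaks 4 did (13.8%, interval 5.50% to 30.6%), beside 10.9% of all WT distal peaks. Both intervals include the share of the whole list.

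**Figure D3:**
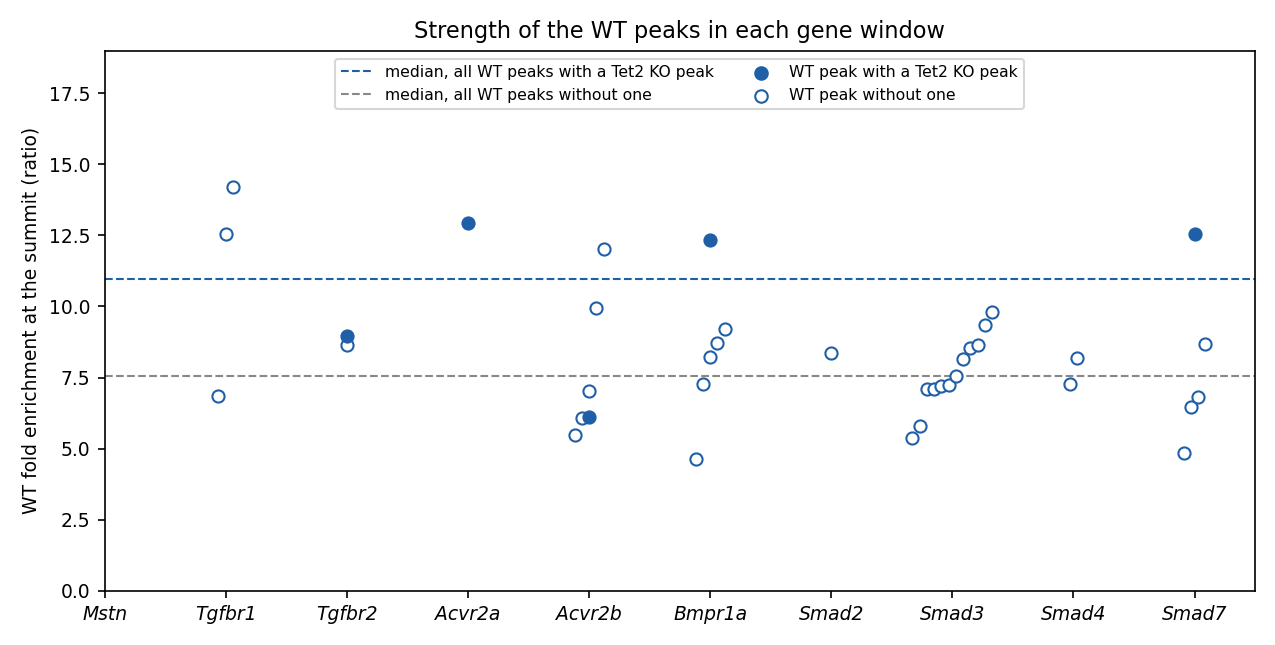
Fold enrichment over the local background (vertical axis) of the 38 member WT peaks by gene, with filled points for peaks that overlap a Tet2 KO peak and open points for those that do not. Dashed lines mark the medians over the whole WT list, 11.0 for peaks with a Tet2 KO peak and 7.57 for those without. Open points above the upper line are 2 of Tgfbr1 and 1 of Acvr2b, and the Acvr2b filled point lies below both.

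The 5 shared WT peaks were mostly among the more enriched of the members. Their median fold was 12.3 with 28 fragments at the summit, against 7.56 and 16 for the 33 without a counterpart. The whole WT list had the same order, with medians of 11.0 and 27 against 7.57 and 15. The ranges overlapped, since the shared peaks ran from 6.12 to 12.9 and the others from 4.62 to 14.2. The peaks at the Tgfbr1 promoter, in Col15a1 and in the Acvr2b intron had at least 25 fragments each and no counterpart, while the shared Tgfbr2 intron peak had 18.

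Within the 5 shared pairs the WT summit stood higher over the genome-wide background of its library than the Tet2 KO summit did. Fragments divided by the genome-wide background of each library were 27.7 in WT and 7.23 in Tet2 KO at the Tgfbr2 intron, a ratio of 3.84 (exact 95% interval from the fragment counts 1.68 to 9.31). At Orc4 and Mbd5, near Acvr2a, they were 44.7 and 10.8, a ratio of 4.12 (2.14 to 8.27). Downstream of Acvr2b they were 55.5 and 19.5, the smallest ratio at 2.84 (1.68 to 4.87). Upstream of Bmpr1a they were 40.1 and 9.40, a ratio of 4.27 (2.11 to 9.04). In the Smad7 intron they were 43.2 and 8.67, the largest ratio at 4.98 (2.45 to 10.7). With this scaling all 5 intervals lie above 1, and they overlap one another. Over the 3722 pairs of the whole lists the median ratio was 3.87 with quartiles of 3.25 and 4.55, so the members' median of 4.12 lay between those quartiles. Without the scaling WT had 1.33 to 2.33 times the fragments of Tet2 KO, and the interval included 1 in 3 of the 5 pairs: Tgfbr2 (0.788 to 4.36), Acvr2b (0.787 to 2.28) and Bmpr1a (0.991 to 4.24). For Acvr2a it began at 1.003 and for Smad7 at 1.15. The deposited folds over the local background stood in a ratio of 1.93 to 2.86 in 4 pairs, and of 1.09 downstream of Acvr2b, where WT and Tet2 KO were nearly equal by that measure. These unscaled and local values were added after the data were seen.

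**Figure D4:**
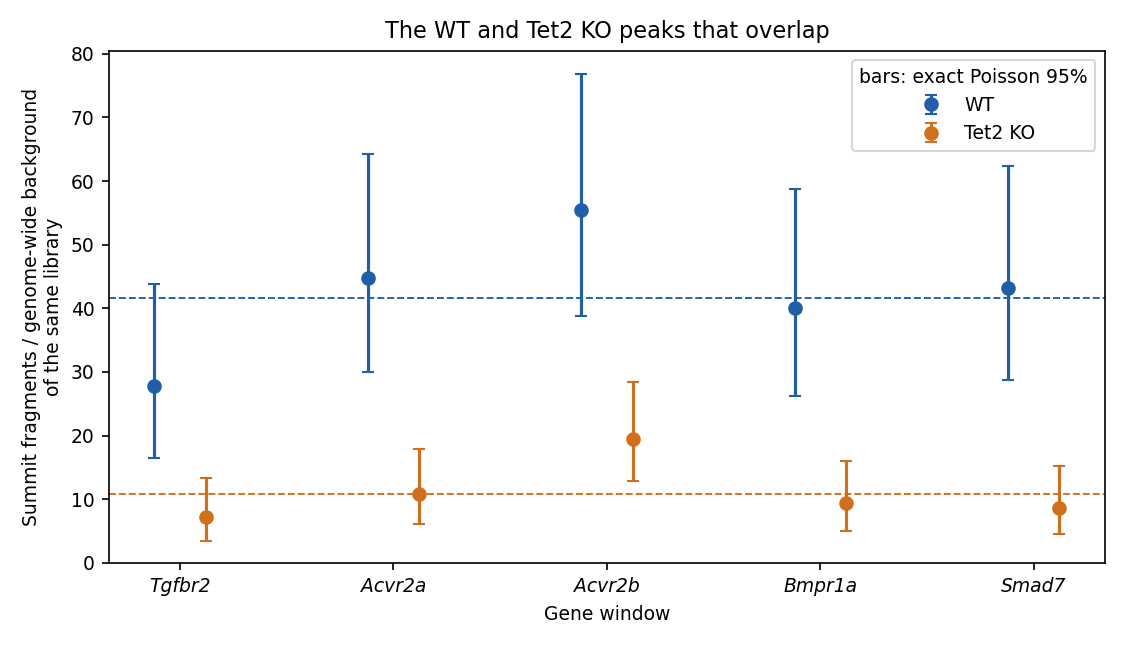
Summit fragments divided by the genome-wide background of the same library (vertical axis) for the 5 member regions listed in both genotypes, with WT and Tet2 KO side by side and bars for exact Poisson 95% intervals of the fragment counts. Dashed lines mark the medians over all WT peaks with a Tet2 KO peak (41.6) and over all Tet2 KO peaks (10.8). Each WT point is above its Tet2 KO point, and the pair downstream of Acvr2b has the highest point of each genotype.

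The 33 WT peaks without a counterpart held 9 to 33 fragments at the summit. By the skipped numbers, up to 29 Tet2 KO peaks and 24 WT peaks that were called in and around the member windows may be absent from the lists. Whether sensitivity differed between the libraries was not tested.

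The member WT peaks were richer in CG dinucleotides than the WT list. Their median was 2.66 per 100 bp against 1.71, and this held at promoters (9.29 against 7.38) and at distal peaks (2.18 against 1.23). The median GC content was 58.8% against 53.2%. These are descriptions of few peaks, and the member values ran from 0 at the Smad3 intron peak to 14.7 per 100 bp at Iqch and Aagab. The shared intergenic peak upstream of Bmpr1a and the shared Tgfbr2 intron peak were CG-poor, with 2 CG dinucleotides each in WT, and the printed Tgfbr2 Tet2 KO sequence held none.

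With promoter and distal peaks pooled, motif content of the member peaks was close to that of the list except for GGAATG. The SMAD box CAGAC was present in 16 of 38 member WT peaks, or 42.1% (Wilson 95% interval 27.9% to 57.8%), against 46.6% of all WT peaks. Its palindromic form GTCTAGAC was in none of the member peaks (0 of 38, interval 0% to 9.18%) and in 41 of the whole WT list, or 0.159%. GTCTAGAC ends in the letters AGAC but does not contain CAGAC. The GC-rich SMAD motif GGCGCC was in 3, or 7.89%, against 6.72%. The E box CAGCTG was in 15, or 39.5%, against 35.97%, and the AP-1 motif TGANTCA in 14, or 36.8%, against 36.1%. The TEAD motif GGAATG was in 12, or 31.6% (interval 19.1% to 47.5%), against 19.1%, and within 200 bp centred on the summit in 8, or 21.1%, against 17.2%. For each motif the pooled interval of the members included the share of the whole list, for GGAATG only at its lower end. At the 9 promoter peaks GGAATG was in 3, or 33.3% (interval 12.1% to 64.6%), above the 10.9% of all WT promoter peaks. These 3 were at the promoters of Xylb, Smad2 and Smad7. Within 200 bp centred on the summit GGAATG was in 2 of the 9, or 22.2%, against 9.24%. No allowance was made for the number of motifs and peak sets compared. At the same 9 promoter peaks TGANTCA was in 22.2% against 8.87% and CAGAC in 22.2% against 40.5%. The promoter intervals of all motifs but GGAATG included the share of all WT promoter peaks. At distal peaks every interval included the share of all WT distal peaks. In the sequences printed above, the Bmpr1a upstream peak holds letters of all 4 motif kinds marked, the Tgfbr2 intron peak those of AP-1 and TEAD, and the Acvr2b downstream peak an E box alone.

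In a list of 50 other genes of the pathway, chosen from its textbook parts, a WT peak was in the window of 44 (74.3% of all genes) and a Tet2 KO peak in that of 19 (31.4% of all genes). More WT than Tet2 KO peaks were listed for 42 (71.1% of all genes) and more Tet2 KO peaks for 0. The 8 with equal numbers were Nog and Bambi, each with 1 in both lists, and 6 with none: the ligands Inhba, Bmp2, Bmp4 and Bmp7, the receptor Acvr1c and the proteoglycan Dcn. In these windows there were 218 WT and 27 Tet2 KO peaks, a ratio of 8.07, and 25 WT peaks had a counterpart, or 11.5% (Wilson 95% interval 7.89% to 16.4%, beside 14.1% of the whole list).

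By role, a WT peak was in the window of 5 of 9 ligands, 7 of 8 receptors and 8 of 8 SMADs and partners. The same held for 14 of 15 inhibitors and ubiquitin ligases and 10 of 10 target genes. Over all genes the share was 74.3%, and differences between these small groups were not tested. The most WT peaks were at Ski, whose product represses SMAD complexes, with 18 against 3 in Tet2 KO. Ltbp1, which holds latent TGF-beta in the matrix, had 14 against 1, and Nedd4l, a ubiquitin ligase that targets activated SMADs, had 12 against 0. The activin type I receptor gene Acvr1 had 10 against 0, and Id3, which encodes an inhibitor of MyoD and its partners, had 10 against 2. The windows of Ltbp1, Nedd4l and Acvr1 were long, 487, 430 and 279 kb, beside a median of 115 kb over all genes.

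Promoter peaks of these 50 genes were listed for 17 in WT (30.4% of all genes) and 5 in Tet2 KO (7.94% of all genes). The Tet2 KO promoter peaks were at Id2 (−log10 q of 8.35), Bambi, a decoy receptor (6.01), Skil, a relative of Ski (4.58), Id3 (3.95) and Ski (3.80). Skil alone of these had no WT peak centred in the promoter span.

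**Figure D5:**
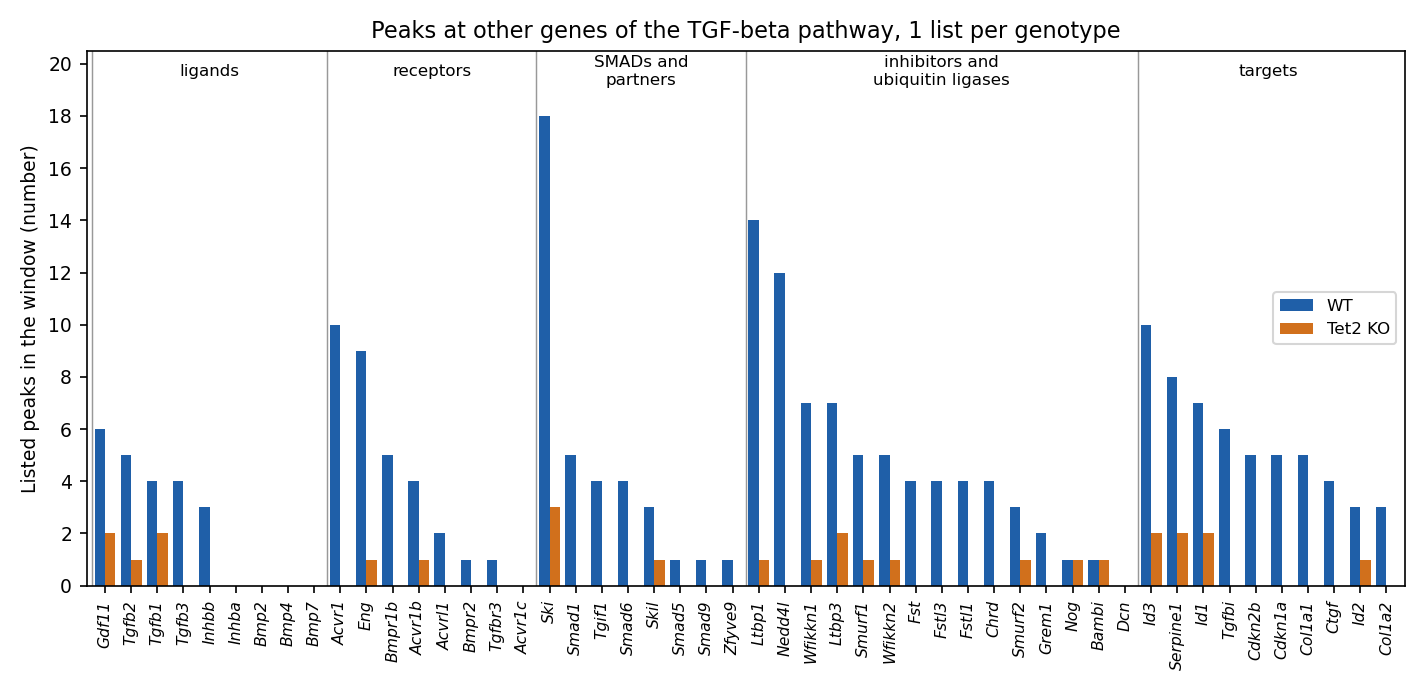
Number of listed peaks in the window of each of the 50 other pathway genes (vertical axis), grouped by role, with WT and Tet2 KO side by side. Ski is the tallest WT bar at 18 with 3 Tet2 KO peaks, and no gene has more Tet2 KO than WT peaks.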

How the data were processed

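Per the labels, ATAC-seq libraries of 2 WT and 2 Tet2 KO myoblast samples were made; 1 peak list per genotype was analysed. For the authors' lists, paired reads of 150 bp were shortened to 36 bp before alignment. Bowtie2 (genome mm9), Picard (for duplicates) and MACS2 (1 run a sample, stated q of 0.01) were the tools, and alignments with mapping quality below 30 did not enter. Versions are not given in the sources used here. How the part of the called peaks that is listed was chosen is not stated. The smallest −log10 q was 2.18 in the WT list and 0.863 in the Tet2 KO list, so the limits of the lists differed. The deposited fold column is a ratio of the summit to its local background, 1 being added to both, and the deposited −log10 p and −log10 q columns are those of MACS2. Read counts are not in the lists. The paper ran MACS2 on paired fragments and names no control. The genome-wide background solved for here is then an average coverage by all fragments, so it rises with depth and does not measure noise alone. By that measure the Tet2 KO library had 2.13 times the coverage of the WT library.

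Summit fragments and local background were solved from the fold and the Poisson −log10 p (tolerance 0.001 on the −log10 scale), which succeeded for 100% of peaks; 55 WT peaks and 1 Tet2 KO peak had more than 1 solution. The solver was tested on simulated data. Genes were the 22350 protein-coding genes of GENCODE M1. Python 3.11.15, pandas 2.3.3, scipy 1.17.1 and pysam 0.24.0 were used. Named were all 10 members, their promoter peaks, Tet2 KO peaks and the WT peaks these overlap, the most enriched WT peak of each window, the nearest peaks where a member had none, other genes with a listed promoter peak in a window, and of the pathway list the genes with a Tet2 KO promoter peak and the 5 with the most WT peaks. The further peaks and gaps described (Col15a1, Ldb3 and the neighbours of named peaks) were chosen after their values were seen. The members, gene lists and motifs were chosen with earlier results of these data known. The alternatives were other peak limits, windows, promoter spans, overlap rules, merged peaks and each member left out.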

Additional observations from a re-analysis of the deposited data

How the results depend on the processing

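Of 114 alternative values for 18 results, 93 stayed within the limits set and 21 moved. The limits were 1.5 times the count, or the interval of the share or ratio, which for the overlap share was wide (5.75% to 27.3%). None of the 21 came from leaving out a member, and without Smad3 the ratio of WT to Tet2 KO peaks was 5.2. Leaving out Mstn could not change any value, because it had no peak in either list. Limiting both lists to a −log10 q of 5 or more, the windows held 3 Tet2 KO peaks and a ratio of 11.7, and at 10 or more they held 0, so that 0% of WT peaks had a counterpart and no ratio could be formed. With a fold of at least 5 there were 3 Tet2 KO peaks and a ratio of 12. The whole lists were not counted at these limits, so these values cannot be set against the 6.72 and 14.1% of the full lists. Over the whole lists the median −log10 q was 10.6 in WT and 5.49 in Tet2 KO, and the median fold 7.89 and 5.59. A −log10 q of 10 lies between the 2 medians, so that limit takes out a larger share of the Tet2 KO list. The limits of 5, on −log10 q and on fold, lie below both medians, and the shares they take out were not counted. Windows from 10 kb upstream to the gene end held 19 WT and 3 Tet2 KO peaks, windows of 100 kb on either side 67 and 13, and peaks whose nearest start was that of the member numbered 24 and 3. With a promoter of 1000 or 3000 bp on either side 1 member, Smad7, had a Tet2 KO promoter peak, at its internal start. WT counts exceeded Tet2 KO counts under each of these settings. With 6.72 times as many WT peaks in the whole lists, this says nothing particular about the members. Shares over all genes were not counted at these settings. In the shared pairs, by alternatives added after the data were seen, the ratio of WT to Tet2 KO without scaling moved to 1.33 at Acvr2b, 1.93 at Acvr2a, 2 at Bmpr1a and 2.33 at Smad7, and by the deposited folds to 1.09 at Acvr2b, 1.93 at Acvr2a and 2.10 at Bmpr1a. No paired analysis was possible because the 2 lists carry no replicate number. Without replicates the spread between animals is unknown, and genotype and library cannot be told apart. At 9 to 36 fragments a WT summit, single-peak values are imprecise.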
